A study of Mus musculus with 21 samples.

Results

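The 10 genes described here encode enzymes that remove reactive oxygen species or keep their partners reduced: Sod1, Sod2, Sod3, Cat, Gpx1, Gpx3, Gpx4, Prdx3, Txnrd1 and Nqo1. They were chosen by symbol, are 10 of the 40853 genes counted, and all 10 had enough counts to be among the 16129 genes tested. RNA came from the medial belly of the gastrocnemius, a calf muscle, of 21 female C57BL/6NJ mice that were 10 weeks old at the start, with 1 poly(A) library per mouse and 7 mice per group. Active mice trained on a treadmill for 6 weeks, 5 days per week, in sessions of up to 40 min that began with a slow warm-up and went on at about 70% of their maximal speed, for a time that was lengthened over the first weeks. Activity Reduction mice trained in the same way for 4 weeks and were then inactive for 2 weeks. Inactive mice did not train during the 6 weeks. Mice of every group had run a maximal test 48 to 72 h before the muscle was taken, so no group is free of recent exercise, and all were fasted.

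Superoxide formed in contracting muscle and by its mitochondria is converted to hydrogen peroxide by superoxide dismutases, and the peroxide is then reduced to water by catalase, glutathione peroxidases and peroxiredoxins. Glutathione peroxidases draw their electrons from glutathione and peroxiredoxins draw theirs from thioredoxin, which thioredoxin reductase regenerates at the cost of NADPH. The transcription factor NRF2, held back by KEAP1 and working with small MAF proteins, is known to raise several of these genes under oxidative stress. Repeated exercise is a known source of oxidants in muscle, and whether the transcripts of these enzymes differed after training, and after training had stopped, is the question the 3 groups address here.

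Of the 10 members, 4 encode selenoproteins, in which a UGA codon that normally ends translation is read as selenocysteine, the residue that carries the catalytic activity. These codons are shown because the selenoproteins are treated together below and include the member with the smallest p-value. Each is given 5′ to 3′ on the plus strand of GRCm39, with the codon in capitals as TGA. The sequences lie within the coding exons at chr9:108216635-108216667 for Gpx1, chr11:54798067-54798099 for Gpx3, chr10:79890556-79890588 for Gpx4 and chr10:82731856-82731876 for Txnrd1.
Gpx1: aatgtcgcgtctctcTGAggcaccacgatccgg
Gpx3: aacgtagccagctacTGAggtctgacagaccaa
Gpx4: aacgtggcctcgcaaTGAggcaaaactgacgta
Txnrd1: ctccagtctggctgcTGAggt
In the glutathione peroxidases the codon lies inside the coding sequence, and in Txnrd1 it is the next-to-last codon, followed by a glycine codon.

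The libraries held between 38482455 and 59785132 counts each. Values are given as normalized counts, which are counts divided by a DESeq2 size factor for each library. Transcripts of skeletal muscle fibers were abundant, with all 12 genes of the muscle list detected and a summed level between 9962990 and 12309200 normalized counts. Mylpf of that list was low, with means of 113 in Inactive, 136 in Active and 149 in Activity Reduction mice, and the cause was not tested. Transcripts of liver genes divided the libraries: Alb, which encodes albumin, stood between 18690 and 55394 normalized counts in 8 libraries and between 3617 and 7965 in the other 13. Of the 8, 5 came from Active mice (replicates 1 to 5), 2 from Activity Reduction mice (replicates 1 and 2) and 1 from an Inactive mouse (replicate 1). Cat and Gpx1 are strongly expressed in liver, so fold changes with this division as a covariate are plotted for every member, and values within the 13 libraries, which left 2 Active mice, are added for several members. The labels also number the mice across groups, and these 8 were the first 8 of the 21 in that order. The labels name no batch, and the place in this order and the liver transcripts cannot be told apart. Nothing in the labels says that mice with the same replicate number in different groups belong together.

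No member passed the thresholds in any of the 3 comparisons, which were an adjusted p-value under 0.05 and a log2 fold change over 0.25 in either direction (edgeR's quasi-likelihood test, adjusted by Benjamini-Hochberg over 16129 genes). Few other genes did: the share of all genes tested that passed was 0% for Active against Inactive, 0.0124% for Activity Reduction against Inactive and 0% for Activity Reduction against Active. At an unadjusted p-value under 0.05, 1 member (Gpx4) was lower in Active than in Inactive mice, 0 members differed between Activity Reduction and Inactive mice, and 2 members (Sod1 and Gpx4) were higher in Activity Reduction than in Active mice. Over all genes tested, 10.9%, 7.73% and 13.3% had such a p-value in these comparisons. By direction the shares were 6.18% higher and 4.69% lower in Active than Inactive mice, 4.19% higher and 3.54% lower in Activity Reduction than Inactive mice, and 6.89% higher and 6.44% lower in Activity Reduction than Active mice. In the test of any difference among the 3 groups, 2 members (Sod1 and Gpx4) had an unadjusted p-value under 0.05, as did 12.6% of all genes. Their adjusted p-values in that edgeR test were 0.307 and 0.184. Against these shares, the counts of 1, 0 and 2 among 10 members are near the background. The median log2 fold change of the 10 members was -0.05 for Active against Inactive, -0.00016 for Activity Reduction against Inactive and 0.03 for Activity Reduction against Active, where the medians of all genes were 0.0052, 0.0057 and -0.00065. The last of these comparisons shares its Active mice with the first, and the 2 are not independent.

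**Figure D1:**
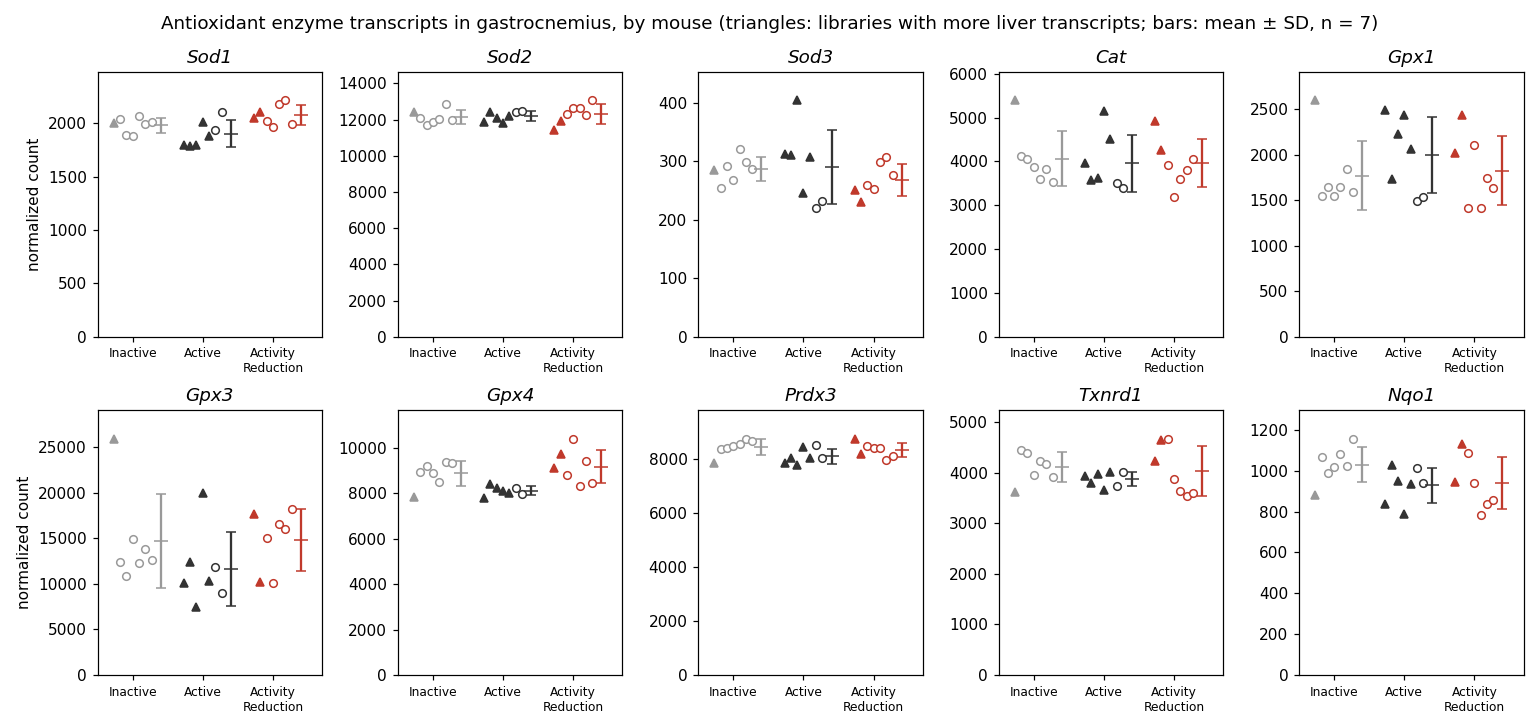
Normalized counts of the 10 members (vertical axes, each from 0) in each mouse of the 3 groups, with filled triangles for the 8 libraries with more liver transcripts, open circles for the other 13, and bars for the mean ± SD of 7 mice. Gpx4 sat lowest in the Active group, at 8111 ± 204, and Inactive replicate 1 stood above the other Inactive mice for Cat, Gpx1 and Gpx3.

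**Figure D2:**
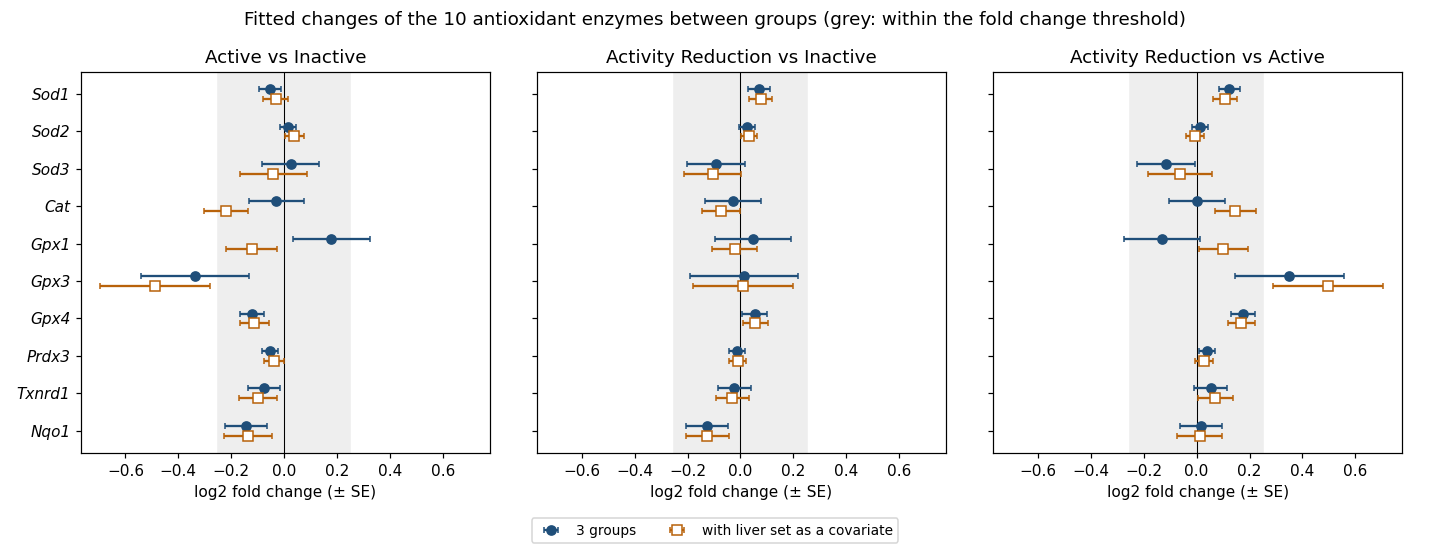
Log2 fold change (horizontal axis) with its standard error for each member in the 3 comparisons, from the edgeR fit of 3 groups (filled circles) and from the fit with the liver division as a covariate (open squares); the grey band spans the fold change threshold of 0.25. Gpx1 changed sign with the covariate in all 3 comparisons, and Gpx4 kept nearly the same value.

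Gpx4 (chr10:79883000-79892273, plus strand, GRCm39), the glutathione peroxidase that reduces lipid hydroperoxides in membranes, had its lowest mean in Active mice. Its level ran from 7783 to 8404 normalized counts in Active mice, with a median of 8122. Inactive mice ran from 7846 to 9401, with a median of 8931, and Activity Reduction mice from 8332 to 10414, with a median of 9109. The groups overlapped, but 6 of the 7 Activity Reduction mice stood above every Active mouse. The Inactive mouse with the lowest value, 7846, was replicate 1, which also held the most liver transcripts. The mean was 8875 ± 544 in Inactive mice, 8111 ± 204 in Active mice and 9181 ± 739 in Activity Reduction mice (SD, n = 7). Activity Reduction exceeded Active mice by 13.2%, a log2 fold change of 0.18 with a standard error of 0.0456 and a 95% confidence interval from 0.08 to 0.27 (unadjusted p = 0.000819, adjusted p = 0.126, edgeR's quasi-likelihood test). An exact permutation test of the means, two-sided over all splits of the 14 mice, gave p = 0.00117. Active minus Inactive mice was -8.61% of the Inactive mean, with a log2 fold change of -0.12 and a standard error of 0.0456 (unadjusted p = 0.013, adjusted p = 0.345, edgeR; exact permutation p = 0.00816). Activity Reduction and Inactive mice differed by 0.05 on the log2 scale, with an interval from -0.04 to 0.15 (unadjusted p = 0.254, edgeR).

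Gpx4 kept its direction and an unadjusted p-value under 0.05 under all 9 alternatives in both comparisons with the Active group. With the liver division as a covariate, its log2 fold change was 0.17 for Activity Reduction against Active mice and -0.11 for Active against Inactive mice. Over the alternatives the adjusted p-value for Activity Reduction against Active mice ran from 0.0326, with DESeq2, to 0.981, within the 13 libraries (Benjamini-Hochberg over all genes in each fit). The DESeq2 fold change, 0.18 on the log2 scale, lay under the threshold of 0.25, so Gpx4 was not called there either. Gpx4 has near copies in the genome. The longest match was Gm63662, a long noncoding RNA gene, over 81% of the Gpx4 transcript at up to 99.7% identity. The processed pseudogenes Gpx4-ps1 and Gpx4-ps2 match 55.4% and 57.9% of the transcript at up to 95.1% and 99.6% identity. How the counting treated reads that fit more than one place is not given in the sources used here.

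Sod1 (chr16:90017408-90027657, plus strand, GRCm39), the copper and zinc superoxide dismutase of the cytosol, had its highest mean in Activity Reduction mice. It ran from 1784 to 2111 normalized counts in Active mice, with a median of 1886, from 1882 to 2067 in Inactive mice, with a median of 2003, and from 1963 to 2217 in Activity Reduction mice, with a median of 2050. The groups overlapped, and 2 Activity Reduction mice stood above every Active mouse. Activity Reduction mice were 9.11% above Active mice, a log2 fold change of 0.12 with a standard error of 0.0407 (unadjusted p = 0.006, adjusted p = 0.191, edgeR's quasi-likelihood test; exact permutation p = 0.0157). The difference was 0.11 once the liver division was a covariate and 0.03 within the 13 libraries, where it did not reach an unadjusted p-value under 0.05 (edgeR, adjusted p = 0.983). The annotated exons of Sod1 share 48.8% of their bases with Scaf4 on the opposite strand, and whether reads were counted by strand is not given, so reads from Sod1 and Scaf4 may not have been told apart. Scaf4, named here after its overlap and values were seen, held 1060 normalized counts in Inactive, 1120 in Active and 1154 in Activity Reduction mice.

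The other superoxide dismutases had no unadjusted p-value under 0.05 in any comparison over all libraries (edgeR). Sod2, the manganese enzyme of the mitochondrial matrix, was nearly level: its means were 12135 ± 382 in Inactive, 12190 ± 275 in Active and 12322 ± 544 in Activity Reduction mice (SD, n = 7). Its 95% confidence interval on the log2 scale ran from -0.05 to 0.08 for Active against Inactive mice and also from -0.05 to 0.08 for Activity Reduction against Active mice, both inside the threshold of 0.25. Sod3, the secreted enzyme of the extracellular matrix, had the lowest counts of the members, at 287 ± 21.1, 290 ± 63.9 and 268 ± 27.6. Its spread was widest in Active mice, from 220 to 404 normalized counts, where the 2 libraries with fewer liver transcripts held the lowest and the next-lowest value. Within the 13 libraries Sod3 was lower in those 2 Active mice than in Inactive mice, with a log2 fold change of -0.34 (unadjusted p = 0.0101, adjusted p = 0.808, edgeR) against 0.02 over all libraries.

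Catalase, the peroxisomal enzyme that splits hydrogen peroxide, had near-equal means in the 3 groups. Cat stood at 4058 ± 629 in Inactive, 3958 ± 647 in Active and 3967 ± 545 in Activity Reduction mice, and its highest mouse in each group (5395, 5153 and 4925 normalized counts) was a library with more liver transcripts. Among those 8 libraries the mean was 4423 ± 692 (SD, n = 8), and among the 13 it was 3731 ± 286 (SD, n = 13). With the division as a covariate, the log2 fold change of Cat for Active against Inactive mice went from -0.03 to -0.22 (unadjusted p = 0.0136, adjusted p = 0.495, edgeR). Within the 13 libraries it was -0.15 (adjusted p = 0.85, edgeR), and Activity Reduction against Active mice was 0.10.

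Gpx1, the abundant glutathione peroxidase of cytosol and mitochondria, followed the liver transcripts most closely of the members by Pearson's r in each library set. Its mean was 2253 ± 295 in the 8 libraries and 1629 ± 187 in the 13, a ratio of 1.38, though the libraries overlapped between 1731 and 2106 normalized counts. By training group the means were 1773 ± 378, 1998 ± 414 and 1828 ± 382 for Inactive, Active and Activity Reduction mice. Active mice were therefore 12.7% above Inactive mice over all libraries (log2 fold change 0.18, 95% confidence interval from -0.12 to 0.48), but the value was -0.12 once that division was a covariate and -0.10 within the 13 libraries. Within the 13 libraries, Gpx1 and the mean level of the 24 liver genes had a Pearson correlation of 0.745 (permutation p = 0.00371, adjusted over 20 relations 0.0742) and a Spearman correlation of 0.775 (permutation p = 0.00272, adjusted 0.0544). Without the 2 libraries farthest from the median liver level the Pearson correlation was 0.634. In the 8 libraries Pearson's r was 0.86 (permutation p = 0.0076, adjusted 0.076) and Spearman's rho was 0.738 (permutation p = 0.0464, adjusted 0.232). Pearson's r of Gpx1 fell to 0.478 without the 2 libraries farthest from the median level, so there it depended on them in part. By rank, Gpx4 and Nqo1 ran against the liver level in these 8 more strongly than Gpx1 ran with it. Their Spearman correlations were -0.881 (permutation p = 0.00784, adjusted 0.0709) and -0.857 (permutation p = 0.0106, adjusted 0.0709). Pearson's r was -0.329 for Gpx4 and -0.613 for Nqo1. In the 13 libraries rho was 0.368 for Gpx4 and -0.495 for Nqo1. After adjustment 0 of the 20 relations of the 10 members were under 0.05. Of the 8 libraries, 5 came from Active mice, and Gpx1 and Cat had higher means in the 8 than in the 13. Cat correlated with the liver level at -0.0516 in the 13 libraries (Pearson, permutation p = 0.867), or 0.53 without the 2 farthest libraries. In the 8 it was 0.625 (permutation p = 0.0634, adjusted 0.423), or 0.145 without 2. The part of liver transcripts in the group differences was not tested beyond the covariate and the split. Of the annotated exons of Gpx1, 85.3% overlap Gm57050, a long noncoding RNA gene on the opposite strand, so their reads may not have been told apart.

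**Figure D3:**
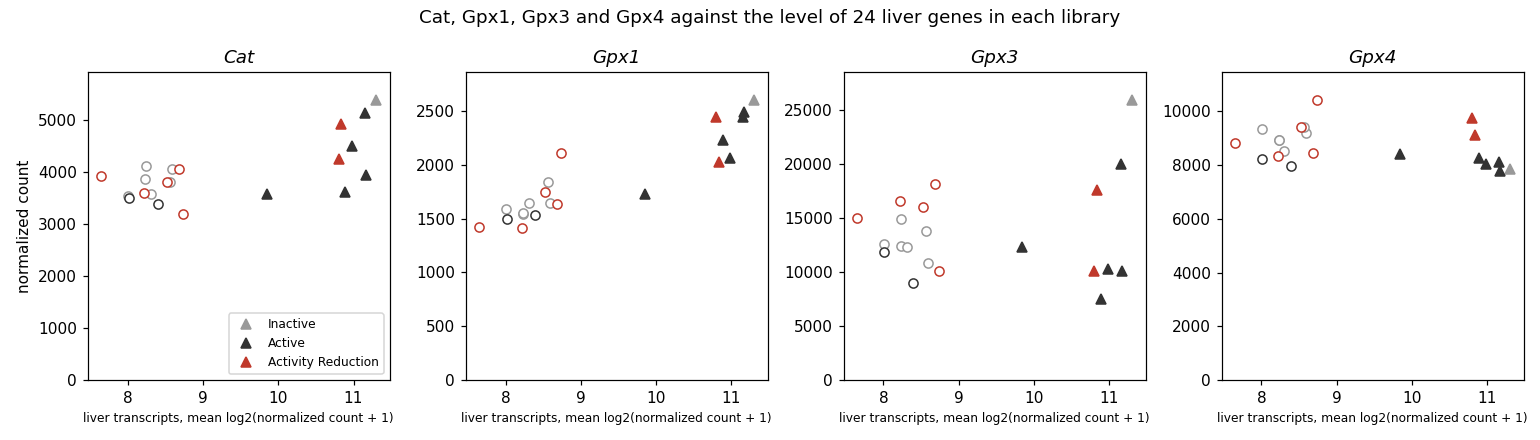
Normalized counts of Cat, Gpx1, Gpx3 and Gpx4 (vertical axes, from 0) against the mean log2(normalized count + 1) of 24 liver genes in the 21 libraries, with filled triangles for the 8 libraries with more liver transcripts, open circles for the 13 with fewer, and grey, black and red for Inactive, Active and Activity Reduction mice. Gpx1 and Cat reached their highest values in libraries on the right, and Gpx4 did not.

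Gpx3, the glutathione peroxidase secreted into plasma, varied most between mice. It ran from 10840 to 25936 normalized counts in Inactive mice, with a median of 12638, from 7474 to 19962 in Active mice, with a median of 10292, and from 10096 to 18159 in Activity Reduction mice, with a median of 16000. The highest Inactive mouse (replicate 1) and the highest Active mouse (replicate 4) stood well apart from the others of their groups, and both were libraries with more liver transcripts. Active minus Inactive mice was -21.1% of the Inactive mean, a log2 fold change of -0.34 with a standard error of 0.205 (adjusted p = 0.563, edgeR; exact permutation p = 0.266). Activity Reduction mice were 27.7% above Active mice, a log2 fold change of 0.35 with a standard error of 0.205 (adjusted p = 0.471, edgeR; exact permutation p = 0.124). With Active replicate 4 left out, an alternative chosen after its value was seen, the same differences were -0.52 (unadjusted p = 0.00979, adjusted p = 0.328, edgeR) and 0.53 (unadjusted p = 0.009, adjusted p = 0.229, edgeR). With Inactive replicate 1 left out, Active against Inactive was -0.14. With the covariate for liver transcripts, Gpx3 was -0.49 for Active against Inactive mice and 0.50 for Activity Reduction against Active mice, both with an unadjusted p-value under 0.05 in edgeR. Within the 13 libraries these values were -0.29 (adjusted p = 0.854, edgeR) and 0.53 (unadjusted p = 0.00777, adjusted p = 0.981, edgeR). Of the annotated exons of Gpx3, 85% overlap Tnip1 on the opposite strand. Tnip1, also named after its overlap was seen, held between 1673 and 1736 normalized counts on average in the 3 groups, against 11593 to 14802 for Gpx3.

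Prdx3, the thioredoxin-dependent peroxidase of the mitochondrial matrix, differed little between groups or mice. It held 8431 ± 298 normalized counts in Inactive, 8093 ± 277 in Active and 8319 ± 264 in Activity Reduction mice. Its widest 95% confidence interval reached -0.12 on the log2 scale, for Active against Inactive mice (log2 fold change -0.05, unadjusted p = 0.0975, edgeR). Txnrd1, the cytosolic thioredoxin reductase, stood at 4107 ± 295, 3877 ± 144 and 4028 ± 492, and the Activity Reduction group split around the Active range, with 3 mice above every Active mouse and 3 below every one. Nqo1, a quinone reductase that is a classical NRF2 target, had lower means in both groups that had trained. They were 927 ± 87.2 in Active and 940 ± 128 in Activity Reduction mice against 1030 ± 86.7 in Inactive mice. Neither had an unadjusted p-value under 0.05 against Inactive mice over all libraries (edgeR). The differences were -9.93% and -8.73% of the Inactive mean (edgeR, adjusted p = 0.515 and 0.761; exact permutation p = 0.053 and p = 0.145). Within the 13 libraries, Activity Reduction against Inactive mice had a log2 fold change of -0.23 for Nqo1 (unadjusted p = 0.00862, adjusted p = 0.461, edgeR).

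Prdx3 and Sod2, both enzymes of the mitochondrial matrix, were the steadiest members. Their pooled standard deviations within groups were 0.0490 and 0.0491 on the log2 scale, and only 0.415% and 0.422% of the genes tested had a smaller one. Sod1 (0.0721, 5.87%) and Gpx4 (0.0872, 13.1%) were also steady. Txnrd1 and Nqo1 followed, at 0.121 and 0.155, and Sod3 (0.206), Cat (0.208), Gpx1 (0.291) and Gpx3 (0.408) lay above the median gene, at 0.195. Genes with few counts carry more sampling noise on the log scale, so this ranking also depends on how well a gene is counted.

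Levels of different genes were compared only per length, as reads per kilobase of the GENCODE M39 canonical transcript, scaled to the total count of the library (RPKM). Over the 21 mice the order was Gpx4 (183 ± 12.4), Prdx3 (112 ± 4.80), Gpx3 (97.4 ± 31.8), Sod2 (41.2 ± 1.30), Gpx1 (35.2 ± 7.64), Cat (30.9 ± 5.06), Txnrd1 (24.3 ± 2.06), Sod1 (7.54 ± 0.420), Nqo1 (7.29 ± 0.793) and Sod3 (1.45 ± 0.220; RPKM, SD, n = 21). Within the groups the order was the same, except that in Inactive mice Nqo1 (7.84) stood above Sod1 (7.60 RPKM). Neighbours whose ranges of mean ± SD overlapped were Prdx3 and Gpx3, Sod2 and Gpx1, Gpx1 and Cat, Cat and Txnrd1, and Sod1 and Nqo1. The value of Sod1 rests on a canonical transcript of 5315 bases, of which 79.3% is matched by Scaf4, so its place in this order is uncertain. Every place depends on the length used, such as 5983 bases for Sod2, 3924 for Sod3 and 959 for Gpx4. The annotation used for counting is not given.

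Among the other genes of the pathway, no transcript passed the thresholds in any comparison, and values for those named are the 2 with the smallest unadjusted p-value of each list. Counts at an unadjusted p-value under 0.05, here and in the paragraphs that follow, stand beside the shares of all genes tested. These were 10.9% for Active against Inactive, 7.73% for Activity Reduction against Inactive and 13.3% for Activity Reduction against Active mice. In lists this short, a count of 1 or 2 is near these shares. Of 9 other genes of peroxide removal tested, which are glutathione peroxidases, peroxiredoxins, the sulfiredoxin Srxn1 and the copper chaperone Ccs, Prdx1 was lower in Active than in Inactive mice (log2 fold change -0.11, unadjusted p = 0.0257) and Prdx4, the peroxiredoxin of the endoplasmic reticulum, was lower in Activity Reduction than in Active mice (-0.53, unadjusted p = 0.000585, adjusted p = 0.115, edgeR). Gpx2, the tenth gene of the list and mainly a gut enzyme, had no count in any library. Of 13 thioredoxin and glutaredoxin genes, 3 were lower and 1 higher in Active than in Inactive mice at an unadjusted p-value under 0.05, and 4 were higher and 0 lower in Activity Reduction than in Active mice. Glrx3, a glutaredoxin that binds iron-sulfur clusters, gave the smallest p-value of all these genes: it held 5428 ± 156 normalized counts in Inactive, 4890 ± 215 in Active and 5546 ± 250 in Activity Reduction mice. Activity Reduction exceeded Active mice by 0.18 on the log2 scale (unadjusted p = 2.37e-05, adjusted p = 0.058, edgeR). Txnrd2, the mitochondrial thioredoxin reductase, was lower in Active than Inactive mice (-0.21, unadjusted p = 0.00155, adjusted p = 0.225, edgeR).

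Selenoproteins and the factors that insert selenocysteine gave 2 lower and 0 higher of 14 genes in Active against Inactive mice, 2 higher and 0 lower in Activity Reduction against Inactive mice, and 3 higher and 1 lower in Activity Reduction against Active mice, all at an unadjusted p-value under 0.05. Selenow, the small selenoprotein that is abundant in muscle, stood at 48444 ± 2423 normalized counts in Inactive, 45157 ± 4619 in Active and 53519 ± 5347 in Activity Reduction mice. Its log2 fold change for Activity Reduction against Active mice was 0.24 (unadjusted p = 0.000925, adjusted p = 0.126, edgeR), and that of Selenoh, a nuclear selenoprotein, was 0.30 (unadjusted p = 0.00109, adjusted p = 0.129, edgeR). Both carry the same codon as Gpx4 and were lowest on average in Active mice, as it was. They were named for their small p-values, and the list was mixed. Selenot, Selenok and Selenos were also lowest in Active mice, while Selenop, Selenon, Selenof and Selenom were highest there. Selenop stood at 6909 normalized counts in Active, 6151 in Inactive and 5672 in Activity Reduction mice. Of the members, Gpx3 and Txnrd1 also had their lowest means in Active mice, with no unadjusted p-value under 0.05 in edgeR over all libraries. The mean of Gpx1 was highest in Active mice over all libraries. With the liver division as a covariate, Gpx1, Gpx3, Gpx4 and Txnrd1 were all lower in Active than in Inactive mice, with log2 fold changes of -0.12, -0.49, -0.11 and -0.10, and all higher in Activity Reduction than in Active mice, at 0.10, 0.50, 0.17 and 0.07. Of these, Gpx3 and Gpx4 had an unadjusted p-value under 0.05 in both comparisons, and none passed after adjustment. These directions were not particular to the selenoproteins. In the same fit and order, Cat (-0.22, 0.15), Nqo1 (-0.14, 0.01), Sod1 (-0.03, 0.11) and Prdx3 (-0.04, 0.03) went the same way. Sod3 was negative in both, at -0.04 and -0.06, and Sod2 went the other way, at 0.04 and -0.0058. Within the 13 libraries Txnrd1 was -0.0081 for Activity Reduction against Active mice.

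Of 15 genes of the NRF2 system, 1 was lower in Active than in Inactive mice, 4 were higher in Activity Reduction than in Inactive mice and 2 were higher in Activity Reduction than in Active mice at an unadjusted p-value under 0.05. Mafg, a small MAF partner, was 0.17 higher on the log2 scale in Activity Reduction than in Active mice (unadjusted p = 0.000248, adjusted p = 0.105, edgeR), and Keap1, the adaptor that targets NRF2 for degradation, was 0.14 higher (unadjusted p = 0.00254, adjusted p = 0.154, edgeR). Bach1, a repressor at the same sites, was 0.17 higher in Activity Reduction than in Inactive mice (unadjusted p = 0.0315). These 3 are regulators rather than enzymes. Promoters of 9 members, 250 bases before to 50 after the start in RefSeq (GRCm38.p6), were searched on both strands for TGACNNNGC, the core of the antioxidant response element. It was found for 2 members, Sod1 and 1 of 3 Txnrd1 promoters, while 12.4% of 32851 promoters hold it. That share counts promoters rather than genes, and Gpx4 has 4 promoters and Txnrd1 has 3, so the figures are not alike. Bases outside this window were not searched, and a match is a description of letters only.

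Genes for glutathione and NADPH supply gave 3 higher and 0 lower of 12 in Active against Inactive mice, among them G6pdx, the entry enzyme of the pentose phosphate pathway (log2 fold change 0.41, unadjusted p = 0.00858, adjusted p = 0.33, edgeR), and Gclc, the catalytic subunit for glutathione synthesis (0.21, unadjusted p = 0.0165). Idh2, the mitochondrial NADPH-producing isocitrate dehydrogenase, was lower in Activity Reduction mice than in Inactive (-0.29, unadjusted p = 0.0111) and Active mice (-0.22, unadjusted p = 0.0446). Of 10 genes for oxidant sources, 2 were higher in Active than in Inactive mice and 3 were lower in Activity Reduction than in Active mice. Nox4, an NADPH oxidase that makes hydrogen peroxide, held 46.8 ± 14.6 normalized counts in Inactive, 61.5 ± 7.08 in Active and 39.1 ± 8.49 in Activity Reduction mice (Activity Reduction against Active -0.65 on the log2 scale, unadjusted p = 0.00247, adjusted p = 0.154, edgeR). The phagocyte oxidase genes of this list belong to macrophages as well, whose 9 markers summed to between 2113 and 3564 normalized counts in Active and between 1145 and 3549 in Activity Reduction mice, with 3 lower at an unadjusted p-value under 0.05. Fibroblast markers were lower in Activity Reduction than in Active mice for 8 of 9 genes at that p-value, with sums from 15337 to 23453 in Active and from 11689 to 15621 in Activity Reduction mice. Their part in these differences was not tested. The 3 metallothioneins tested gave no unadjusted p-value under 0.05.

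**Figure D4:**
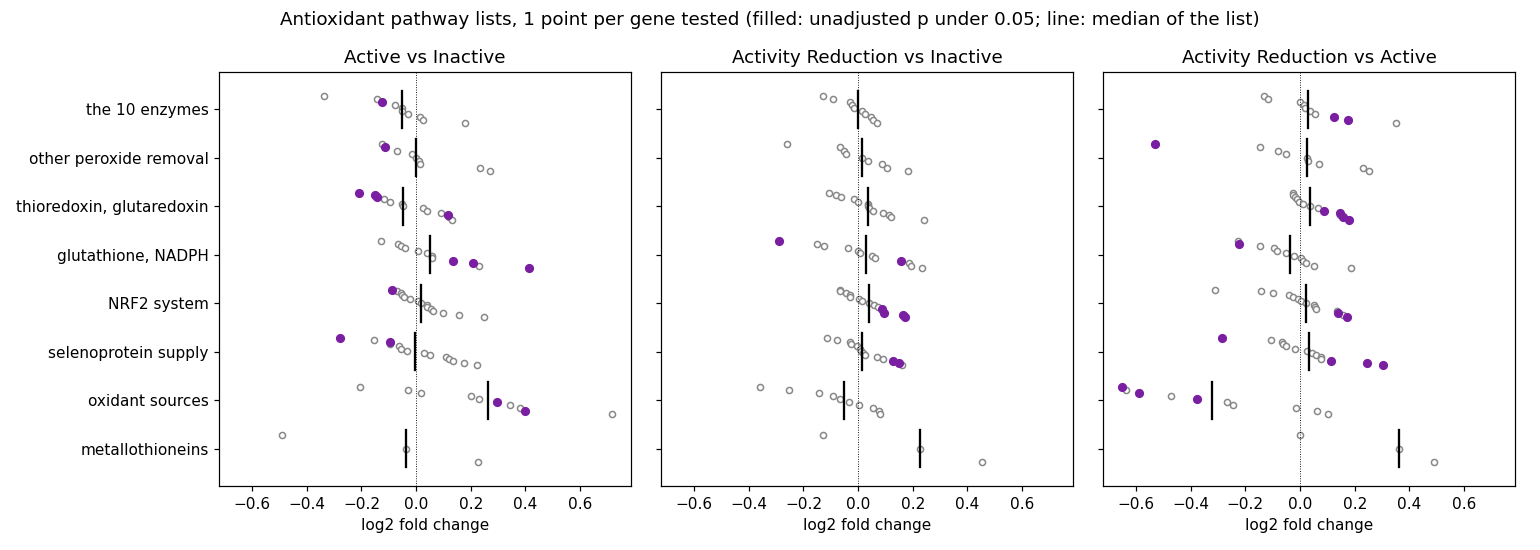
Log2 fold change (horizontal axis) of each gene tested in 8 antioxidant lists, in the 3 comparisons, with filled points at an unadjusted p-value under 0.05 and a vertical line at the median of each list. Filled points of the thioredoxin and selenoprotein lists lay mainly to the left for Active against Inactive mice and to the right for Activity Reduction against Active mice, which share the Active mice; the median of the oxidant sources was 0.26 in the first and -0.32 in the last.

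Markers of slow and oxidative fibers and of mitochondria were set beside the members because oxidative fibers are rich in mitochondria and in several of these enzymes. Of 8 genes of slow and oxidative fibers, 4 were lower in Activity Reduction than in Inactive mice at an unadjusted p-value under 0.05. In that comparison 7 had a negative log2 fold change, and Myh2, the myosin of fast oxidative fibers, was at 0.05. Against Active mice, all 8 had a negative log2 fold change in Activity Reduction mice, with a median of -0.39, and 1 was lower at that p-value, or 7 with the liver division as a covariate. Their summed level ran from 233353 to 284375 normalized counts in Inactive, from 194912 to 301282 in Active and from 175488 to 272363 in Activity Reduction mice. Myh2 had the highest counts of the 8, with means of 159720, 169057 and 164419 in these groups, so the sums mainly show Myh2. Myh7, the slow fiber myosin, had a mean of 27988 in Inactive and 16720 in Activity Reduction mice. The 12 mitochondrial genes summed to between 434671 and 485184 over all mice, with 0 of 12 under that p-value in either comparison with Inactive mice, and 1 higher and 1 lower in Activity Reduction against Active mice. Once the liver division was a covariate, 5 of the 12 were higher in Active than in Inactive mice at that p-value, 1 was higher in Activity Reduction than in Inactive mice and 2 were lower in Activity Reduction than in Active mice. The part of fiber type or mitochondria in the differences of the members was not tested. In whole muscle, fewer cells of a type and less RNA per cell cannot be told apart.

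Across the 21 libraries, the genes whose levels were most like each member's, by Pearson correlation of log2(normalized count + 1), are given as a description, with all points sharing depth and the liver division. Gpx1 was most like Cyp2c54 (0.936), Ebp (0.927) and Otc (0.926), which themselves correlated with the liver level at 0.966, 0.892 and 0.985. Cat was most like Ppp1r3b (0.855), Cyp4a14 (0.793) and Spata2l (0.771), which also followed the liver level, at 0.887, 0.91 and 0.823. For the other members, the genes named correlated with the liver level between -0.556 (Rps26, for Sod1) and 0.253 (Mill2, for Sod3). Nearest to Gpx4 were Ubb (0.888), Tfeb (0.885) and Rtn2 (0.881), whose correlations with the liver level were -0.491, -0.372 and -0.314. Gpx3 was nearest to Hspd1 (0.849), Retsat (0.82) and Eif2s1 (0.76). Txnrd1 was nearest to Pdzrn3 (0.86), Plcd3 (0.857) and Eda2r (0.839), and Nqo1 to Septin11 (0.815), Mpst (0.813) and Prss51 (0.801). For Prdx3 they were Gabarapl2 (0.823), Gm13012 (0.793) and Taf13 (0.789), and for Sod2 they were Ndufv2 (0.769), a complex I subunit, Swt1 (0.742) and Mir133a-2 (0.738). The correlations were lower for Sod1, with Fbxo31 (0.767), Rps26 (0.748) and Klhl21 (0.743), and for Sod3, with LOC115488583 (0.698), Mill2 (0.646) and Gm31201 (0.632).
Among the members themselves, 45 pairs were compared within the 13 libraries with fewer liver transcripts, a family added after the data were seen. The highest Pearson correlations were 0.779 for Gpx1 and Gpx4 (permutation p = 0.00181, adjusted 0.0814; Spearman 0.769, permutation p = 0.00316, adjusted 0.142), 0.693 for Txnrd1 and Nqo1 (permutation p = 0.00879, adjusted 0.198; Spearman 0.692, permutation p = 0.0109, adjusted 0.163) and 0.644 for Prdx3 and Nqo1 (permutation p = 0.0171, adjusted 0.257; Spearman 0.72, permutation p = 0.00688, adjusted 0.155). After adjustment 0 of the 45 were under 0.05. Without the 2 libraries farthest from the median of the first gene of each pair they were 0.475, 0.645 and 0.586. The first correlation thus depended in part on those libraries. Leaving out the extremes of a gene narrows its range, which can lower a correlation by itself.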

How the data were processed

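The authors deposited read counts per gene for 21 libraries: reads were trimmed with fastp, aligned to GRCm39 with RNA STAR and counted with featureCounts, per the study's methods and the submitters' processing notes. Versions, annotation and strand setting are not given in the sources used here, so overlapping genes on opposite strands may share reads. Another deposited table, labelled as normalized, was identical to the counts in all 857913 values and was not used. Counts were tested in edgeR 4.0.16 (R 4.3.3) by the quasi-likelihood test with TMM normalization and filterByExpr, in 1 fit of 3 group means, adjusted over 16129 genes. Thresholds were an adjusted p-value under 0.05 and a log2 fold change over 0.25, a number that the study's methods give without naming a scale. Normalized counts used DESeq2 1.42.0 size factors, and log levels a pseudocount of 1. Library totals ran from 38482455 to 59785132 counts. Counting error depends on the count of each gene: Sod3, the lowest member, had from 212 to 387 raw counts per library. Single members were also tested by exact permutation of means, two-sided. Correlations used 100000 permutations.

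Members and gene lists were chosen with earlier results of these data known. Named were all 10 members, the 2 genes of each of 7 pathway lists with the smallest unadjusted p-value per comparison, the 3 genes most like each member, and Alb; text names others only where said. The widest gap in the mean log2 level of the 24 liver genes, 1.11, set the liver division. Overlaps and copies came from GENCODE M39 on GRCm39 (BLAST 2.17.0, at least 90% identity over 20% of the transcript). Of 40853 genes deposited, 32251 matched 1 GENCODE gene by name. RefSeq promoters were matched for 9 of 10 members. The scripts were tested on simulated data. Alternatives were DESeq2's test, other size factors, no filter, a 2-group fit, a replicate block, the liver division, the 13 libraries and, added later, leaving out 2 libraries.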

Additional observations from a re-analysis of the deposited data

Results flagged for a closer look

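In 5 of 30 combinations of a member and a group of 7 mice, the highest or lowest mouse stood apart from the others by more than Dixon's 95% critical value for the gap over the range; chance gives about 1 in 20. Inactive replicate 1 accounted for 4 of them. It held 5395 normalized counts of Cat (gap over range 0.681), 2601 of Gpx1 (0.721) and 25936 of Gpx3 (0.728), each the highest Inactive value, and 7831 of Prdx3 (0.572), the lowest. Active replicate 4 held 19962 normalized counts of Gpx3 (0.608), the highest Active value. Both libraries were among the 8 with more liver transcripts, with Alb at 55394 and 46692 normalized counts, and the part of liver transcripts in these values was not tested.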

How the results depend on the processing

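No member was called at both thresholds under any of the alternatives. The fold change threshold was dropped only in the edgeR fit of 3 groups, where no member was called either. The lowest adjusted p-value of a member was 0.0326, for Gpx4 in Activity Reduction against Active mice with DESeq2. It passed the threshold for the adjusted p-value there, and its fold change lay under the other threshold. Over all genes, DESeq2 called 62, 21 and 115 genes in the comparisons of Active with Inactive, Activity Reduction with Inactive and Activity Reduction with Active mice, where edgeR called 0, 2 and 0; the cause was not tested. Members with an unadjusted p-value under 0.05 for Active against Inactive mice, 1 in the edgeR fit of 3 groups, were 2 with only the 2 groups compared (Gpx4 and Nqo1), 3 with the liver division as a covariate (Cat, Gpx3 and Gpx4) and 2 in the 13 libraries (Sod3 and Gpx4). They numbered from 2, without Active replicate 4 (Gpx3 and Gpx4), to 4, without Inactive replicate 1 (Gpx1, Gpx4, Prdx3 and Nqo1). For Activity Reduction against Inactive mice, 1 member (Nqo1) had such a p-value in the 13 libraries against 0 over all.

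Of 270 log2 fold changes over 30 results and 9 alternatives, 251 kept their sign and 19 did not. Leaving out Inactive replicate 1 or Active replicate 4, Cat ranged from -0.106 to 0.0534 for Active and from -0.0361 to 0.0552 for Activity Reduction against Inactive mice, positive without Inactive replicate 1. Cat for Activity Reduction against Active mice, 0.0014 over all libraries, was -0.00481 with only the 2 groups, -0.00148 with no filter and -0.00125 with the replicate block. With the liver division as a covariate, Gpx1 was -0.122 for Active against Inactive, 0.101 for Activity Reduction against Active and -0.0214 for Activity Reduction against Inactive mice, Sod2 was -0.00576 for Activity Reduction against Active and Sod3 -0.0412 for Active against Inactive mice. In the 13 libraries, Active against Inactive mice gave -0.104 for Gpx1, 0.0353 for Sod1 and -0.34 for Sod3, and Activity Reduction against Active mice gave 0.127 for Gpx1, 0.298 for Sod3, -0.12 for Nqo1, -0.00663 for Prdx3 and -0.00808 for Txnrd1. Nqo1 for Activity Reduction against Active mice ranged from -0.0235, without Active replicate 4, to 0.0177, without Inactive replicate 1. The causes were not tested. In the 13 libraries, comparisons with the Active group rest on 2 mice.

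Whether replicate numbers pair the mice cannot be settled from the correlations. Over 21 pairs of same-numbered libraries, the correlation of deviations from the group means ran from -0.234 to 0.439, with 7 over 0.1. The pairs of replicate 1 gave 0.244, 0.439 and 0.31, and these libraries all held more liver transcripts. With the replicate block, Gpx4 was 0.175 for Activity Reduction against Active mice (unadjusted p = 0.000829, adjusted p = 0.123, edgeR), the counts of members under an unadjusted p-value of 0.05 were the same, and 4 genes in all were called for Activity Reduction against Inactive mice.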
